A study of Mus musculus with 768 samples.

Results

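The germline Tcf7 knockout was followed across 1 sorting step of early T-cell development in the mouse thymus, from the DN1 gate to the DN2-3 gate. Tcf7-/- DN2-3 cells were sorted as CD45+ cells without lineage markers, CD4 or CD8 and with CD25, and Tcf7-/- DN1 cells as CD45+ cells without lineage markers, CD4, CD8 or CD25 and with CD44. Both came from C57BL/6 mice of 6 to 8 weeks that lack Tcf7 in every cell of the body, and the labels name neither the animals behind a plate nor the antibodies of the lineage mix. Cells with at least 1000 detected genes were taken, which left 93 of 96 DN2-3 cells and 96 of 96 DN1 cells, or 189 of the 768 cells deposited in the series. The remaining cells, used only for side-by-side values, are Vav-cre; Tcf7fl/fl DN2-3 and DN1 (Cre active in blood-forming cells), 2 plates of Lck-cre; Tcf7fl/fl DN2-3 (Cre active in thymocytes), and WT DN2-3 and DN1, all C57BL/6 of the same age. RNA was measured cell by cell with a modified STRT protocol and counted per gene. Each gate of the genotype is 1 library, so nothing was tested: differences are given as log2 ratios of summed CPM (counts scaled to the same library total) with 10 CPM added, 95% intervals cover counting error only, and reads copied by PCR are not independent molecules.

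TCF1, the product of Tcf7, is an HMG-box transcription factor that Notch signalling switches on in the first thymic progenitors. T-cell precursors enter the thymus in the DN1 (CD44+ CD25-) stage, gain CD25 (Il2ra) as DN2 cells, and as DN3 cells rearrange the T-cell receptor beta gene with the Rag enzymes and pair its product with the pre-TCR alpha chain (Ptcra). The DN1 gate is mixed by nature: besides multipotent progenitors it can hold natural killer (NK) cells, innate lymphoid cells (ILC), gamma-delta T cells, dendritic cells and B cells, because many of these carry CD44 and lack CD25. Id2, an inhibitor of E proteins, is high in NK and ILC lineages, and Cpa3, a mast-cell carboxypeptidase, marks early progenitors and mast cells.

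The 93 DN2-3 cells held 8371808 counts in all and a median of 70003 counts and 3671 genes per cell, and the 96 DN1 cells held 4159404 counts and a median of 37088.5 counts and 3132 genes. The labels of the Tcf7-/- cells differ from those of the other genotypes in the molecule named and the genome builds listed, so genotype and a possible batch cannot be told apart in any value set beside WT. All 8 libraries use the same 96 barcode numbers, and 93 numbers belong to a kept cell in both Tcf7-/- libraries. Tcf7 itself had 122 CPM (95% interval 115 to 130) in Tcf7-/- DN2-3 and 98.6 CPM (89.3 to 109) in Tcf7-/- DN1, against 862 and 134 CPM in WT DN2-3 and WT DN1. The labels do not say which part of the gene was removed, so the Tcf7 count is a weak check of the genotype.

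Of 8599 genes with at least 10 CPM in either library, 700 (8.14%) were at least 2-fold higher in Tcf7-/- DN2-3 and 1470 (17.1%) at least 2-fold lower. The median log2 ratio of all measured genes was -0.12. Between the 2 Lck-cre DN2-3 plates, the only libraries of the series that share a genotype and a gate, 2.8% of 8004 measured genes were at least 2-fold higher on plate 2 than on plate 1 and 2.59% at least 2-fold lower. The labels number these sets KO1 and KO2 without saying whether that means plates, sorts or animals, and plate is the name used throughout. Which kind of spread the pair measures is therefore not known. Scaling by TMM factors or by median-of-ratios size factors raises DN2-3 over DN1 by a log2 of 0.11 (0.110 and 0.105 before rounding). Once 10 CPM is added to each side, the rise is smaller for genes of low CPM. A shift of that size cannot turn the direction of a gene or list called by 2-fold. All 15 gene lists and 103 named genes (chosen as described at the end) called by 2-fold stay past it under either.

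**Figure D1:**
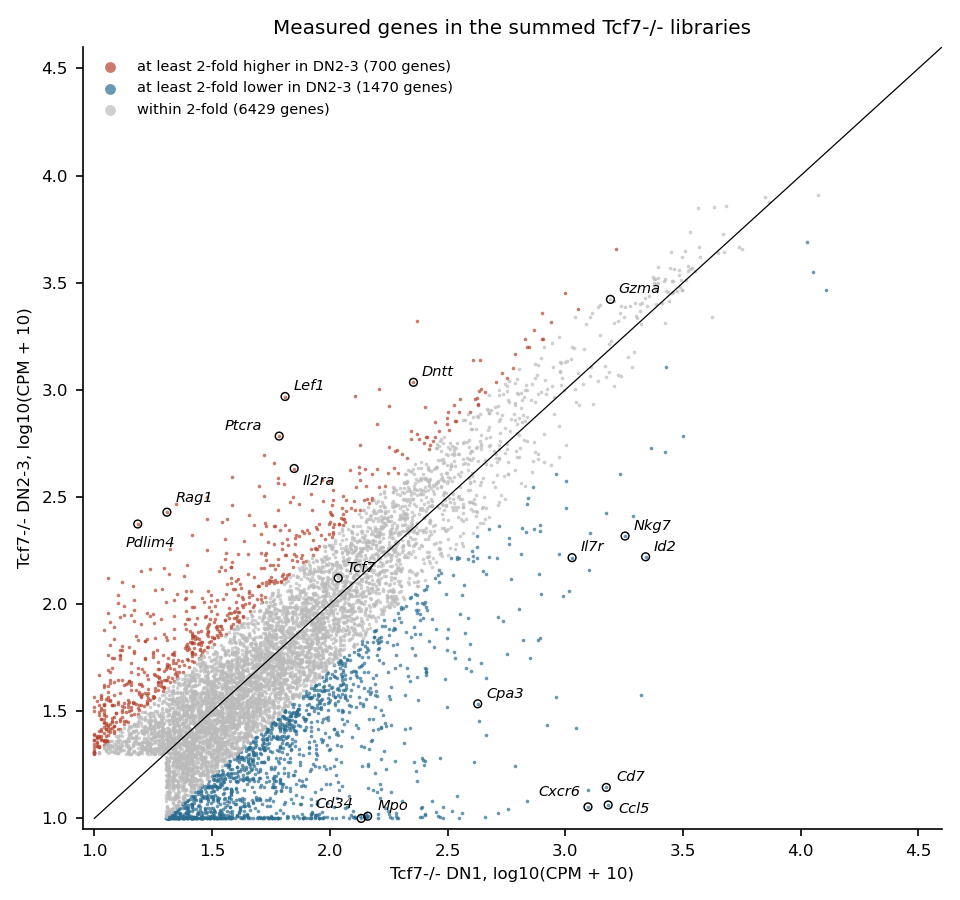
Summed level of each of the 8599 measured genes in Tcf7-/- DN2-3 (vertical) against Tcf7-/- DN1 (horizontal), both as log10(CPM + 10), with the diagonal marking equal levels. The 700 genes at least 2-fold higher in DN2-3 lie within a moderate distance of the diagonal, while the 1470 lower genes reach down to a floor of almost no counts in DN2-3, where Cxcr6, Ccl5, Cd7, Cd34 and Mpo lie.

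The thymocyte markers separated the gates in the direction of the labels. Ptcra, the invariant chain of the pre-TCR (chr17:46755663-46763712, minus strand, GRCm38; gene spans are those of GENCODE vM21), had 598 CPM (582 to 615) in DN2-3 and 51 CPM (44.3 to 58.3) in DN1. Over single cells its lowest, median and highest levels were 0, 462 and 2469 CPM in DN2-3 against 0, 48.1 and 991 CPM in DN1, so the gates overlapped while their medians stood well apart. The log2 ratio was 3.32 (3.11 to 3.52), and 79 of 93 DN2-3 cells against 11 of 96 DN1 cells had at least 6 counts. After each cell was thinned to 10000 counts, which leaves out 4 DN2-3 and 23 DN1 cells, 82% of DN2-3 cells and 30.1% of DN1 cells had a Ptcra count.

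Il2ra, which encodes the CD25 used to sort the DN2-3 gate, had 419 CPM (406 to 433) in DN2-3 and 60.6 CPM (53.3 to 68.5) in DN1; the log2 ratio was 2.60. Its cells ran from 0 over a median of 371 to 2982 CPM in DN2-3 and from 0 over 36 to 1003 CPM in DN1. Since the gate was set on this protein, the Il2ra step checks the sort and is no finding. Dntt, the polymerase that adds untemplated bases to antigen receptor joints, had 1074 CPM (1052 to 1097) in DN2-3 and 217 CPM (203 to 231) in DN1; the log2 ratio was 2.26 (2.14 to 2.38). Dntt was at 6 or more counts in 90 of 93 DN2-3 cells and in 47 of 96 DN1 cells, with a median over cells of 1014 CPM in DN2-3 and 212 CPM in DN1. Less the estimated carry-over between same-numbered barcodes described at the end, DN1 had 129 CPM of Dntt and the log2 ratio was 2.97.

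Id2 and Cpa3 ran the other way. Id2 (chr12:25093799-25097140, minus strand) had 156 CPM (148 to 165) in DN2-3 and 2184 CPM (2139 to 2229) in DN1, and a log2 ratio of -3.72 (-3.83 to -3.62). Its lowest, median and highest cells had 0, 29.3 and 1429 CPM in DN2-3 against 0, 1928 and 10335 CPM in DN1. Against the 13 DN1 cells without NK and ILC markers, which are shallow, the log2 ratio of Id2 was 0.11. Those cells met neither marker class, as defined below. Id2 is among the ILC markers that picked them, so this value is largely fixed by the choice and is no check of the Id2 step. Cpa3 had 24.2 CPM (21 to 27.8) in DN2-3 and 415 CPM (396 to 435) in DN1, and a log2 ratio of -3.63 (-3.84 to -3.42). The Cpa3 counts sat in few cells: 5 of 93 DN2-3 cells and 15 of 96 DN1 cells had 6 or more, and a single cell held 59.6% of the DN2-3 counts and another 34.9% of the DN1 counts.

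**Figure D2:**
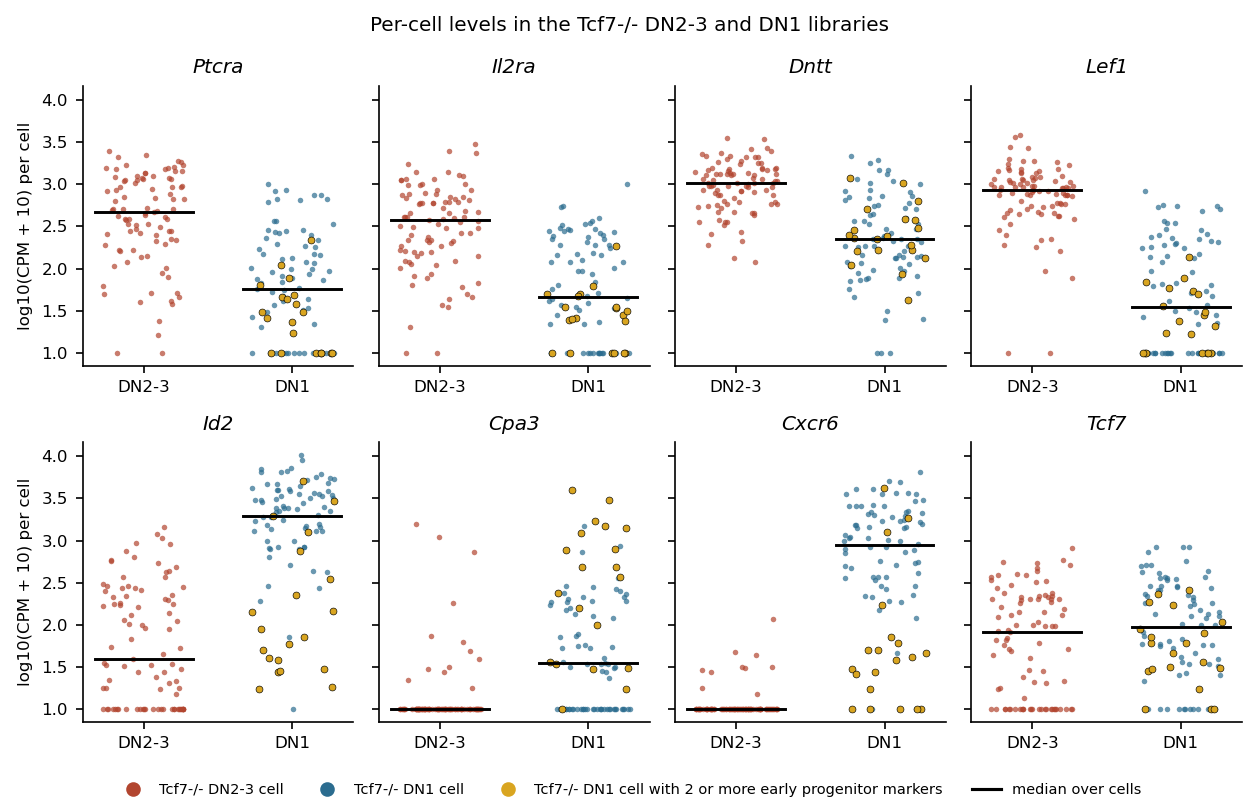
Level of 8 genes in each kept Tcf7-/- DN2-3 cell (left in each panel, 93 cells) and Tcf7-/- DN1 cell (right, 96 cells) as log10(CPM + 10), with the median over cells as a black line and DN1 cells with 2 or more early progenitor markers in yellow. Ptcra, Il2ra, Dntt and Lef1 are higher in DN2-3 with overlap, Id2, Cpa3 and Cxcr6 are higher in DN1, Tcf7 is close to level, and the yellow cells are low in Ptcra and Lef1 and mixed in Id2 and Cxcr6.

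The upstream sequences of Ptcra and Rag1, which are higher in DN2-3, and of Cxcr6 and Id2, which are lower there, are shown so that the letters in front of genes on either side of the step can be compared. Each run is the 250 bases before the gene's start in RefSeq on GRCm38.p6, 5′ to 3′ on the strand of the gene. RefSeq starts can differ from the GENCODE spans: the GENCODE span of Id2 begins further upstream and covers the whole Id2 run, and that of Cxcr6 covers the last bases of the Cxcr6 run. Capitals mark 2 kinds of 6-letter motif, searched on both strands. The E-box, which E proteins are known to bind, was searched in its palindromic form CAGCTG. A further E-box form that was searched on the strand of the gene is CAGGTG. On the opposite strand that form is written as CACCTG. The core that TCF1 and LEF1 are known to bind was searched with a final A, which is spelled CTTTGA. With a final T this core is instead spelled CTTTGT. Read from the opposite strand, the core with a final A becomes TCAAAG. The core with a final T becomes, when read from there, ACAAAG.
Ptcra, chr17:46763713-46763962, minus strand: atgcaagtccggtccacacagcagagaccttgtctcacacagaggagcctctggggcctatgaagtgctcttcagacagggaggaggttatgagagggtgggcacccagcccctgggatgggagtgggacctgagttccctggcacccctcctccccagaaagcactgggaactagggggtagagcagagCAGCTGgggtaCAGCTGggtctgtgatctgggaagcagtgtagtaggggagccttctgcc
Rag1, chr2:101649533-101649782, minus strand: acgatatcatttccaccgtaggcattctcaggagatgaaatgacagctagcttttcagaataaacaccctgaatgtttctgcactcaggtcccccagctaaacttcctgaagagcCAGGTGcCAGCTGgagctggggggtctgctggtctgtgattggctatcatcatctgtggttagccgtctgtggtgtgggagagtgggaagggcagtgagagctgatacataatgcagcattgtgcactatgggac
Cxcr6, chr9:123806227-123806476, plus strand: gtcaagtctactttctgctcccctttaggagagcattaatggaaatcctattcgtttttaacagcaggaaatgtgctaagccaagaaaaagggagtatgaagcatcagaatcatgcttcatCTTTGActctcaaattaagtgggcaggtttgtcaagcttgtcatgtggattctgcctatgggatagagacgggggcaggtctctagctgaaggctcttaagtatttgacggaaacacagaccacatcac
Id2, chr12:25096093-25096342, minus strand: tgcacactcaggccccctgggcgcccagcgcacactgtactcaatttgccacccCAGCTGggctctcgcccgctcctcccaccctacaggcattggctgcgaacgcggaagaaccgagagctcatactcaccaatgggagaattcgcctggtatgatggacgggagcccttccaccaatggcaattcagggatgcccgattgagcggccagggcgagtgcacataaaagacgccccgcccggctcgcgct

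Ptcra and Rag1 each held 2 E-box matches, Id2 held 1 and Cxcr6 held 1 TCF/LEF core. Among 32851 such RefSeq stretches, 27.7% held at least 1 E-box and 5.21% at least 2, and 27.6% held at least 1 TCF/LEF core. A match describes letters in a window and is neither a bound site nor a cause of the levels.

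A set of 12 genes were named for the highest log2 ratios among genes that many cells express. Besides Ptcra they include Lef1, the TCF1-related HMG-box factor, with 921 CPM (900 to 942) in DN2-3 and 54.6 CPM (47.7 to 62.2) in DN1, and a log2 ratio of 3.85 (3.66 to 4.04). Lef1 had at least 6 counts in 86 of 93 DN2-3 cells and 8 of 96 DN1 cells, and its cells had 0, 850 and 3826 CPM at the lowest, median and highest in DN2-3 against 0, 25 and 822 CPM in DN1. Rag1, the recombinase subunit that cuts receptor gene segments, had 258 CPM (248 to 270) in DN2-3 and 10.3 CPM (7.48 to 13.9) in DN1, 25-fold higher in DN2-3 with a counting interval of 18.5 to 34.6; less an estimated carry-over between same-numbered barcodes, described at the end, DN1 had 1.83 CPM, so that interval does not hold the whole uncertainty. No DN1 cell reached 6 Rag1 counts, against 57 of 93 DN2-3 cells.

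Pdlim4, which encodes a PDZ and LIM domain protein of the actin skeleton, had the largest of these ratios, 3.95 (3.65 to 4.21), with 226 CPM in DN2-3 and 5.29 CPM in DN1. It was at 6 or more counts in 46 of 93 DN2-3 cells and in 0 of 96 DN1 cells, with a Clopper-Pearson upper limit of 3.77% of DN1 cells. H2-Q2, of the MHC class I Q region, had 123 CPM in DN2-3 and 1.44 CPM in DN1 (6 counts), and Slc5a9, a sugar transporter, 283 CPM in DN2-3 and 12.3 CPM in DN1. Cd8b1, the CD8 beta chain, had 117 CPM in DN2-3 and 3.13 CPM in DN1 although both gates exclude CD8 at the surface, and 32 of 93 DN2-3 cells had 6 or more counts. Aqp11 (an aquaporin), Pld4 (a phospholipase D family exonuclease), Fbln2 (a matrix protein), Ly6d (a GPI-anchored surface antigen) and Dgkeos had log2 ratios of 3.24, 3.34, 3.18, 3.16 and 3.40. Dgkeos lies antisense to Dgke and its exons overlap it, and the use of strand in counting is not given in the sources used here, so its reads cannot be told apart from those of Dgke. H2-Q2 belongs to a family of near-identical copies, whose counts are uncertain. Ly6d belongs to the wider Ly6 family, and no check of read sharing among its members is given here.

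The genes of the receptor machinery were higher in DN2-3 to different degrees. Of the 5 genes of the pre-TCR and CD3 complex, 3 were at least 2-fold higher in DN2-3 and 0 lower, where the background is 8.14% higher and 17.1% lower, and the list's median was 1.10. Cd3g had 2059 CPM in DN2-3 and 857 CPM in DN1, a log2 ratio of 1.26, and Cd3d 1723 CPM in DN2-3 and 798 CPM in DN1, a log2 ratio of 1.10. Both CD3 chains were thus already well counted in DN1, in 80 and 69 of 96 cells at 6 or more counts, and with cells weighted equally their log2 ratios were 0.93 each. Cd247 (log2 ratio 0.85) and Cd3e (0.58) stayed within 2-fold. Of 10 measured V(D)J recombination genes, 7 were at least 2-fold higher and 0 lower, with a median of 1.44. Rag2, the partner of Rag1, had 125 CPM in DN2-3 and 13.9 CPM in DN1, and Lig4, the ligase of end joining, 38.3 CPM in DN2-3 and 4.33 CPM in DN1.

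Of 21 T-cell receptor signalling genes, 6 were higher and 1 lower, and the median of 0.15 was close to that of all genes. The shares over all measured genes were 8.14% higher and 17.1% lower. Sh2d1a, the SLAM adaptor SAP, had 443 CPM in DN2-3 and 48.1 CPM in DN1, and Themis, a thymocyte selection factor, 92.2 CPM in DN2-3 and 10.1 CPM in DN1. Cd8a had 36.7 CPM in DN2-3 and 0.481 CPM in DN1. Lck, Lat, Zap70 and Fyn, the kinases and adaptor that act next to the receptor, all stayed within 2-fold, with log2 ratios from -0.66 (Zap70) to 0.94 (Lat). These 4 were picked after their values were seen.

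Among 21 T-lineage transcription factors, 5 were higher and 3 lower, with a median of 0.29, where 8.14% of all measured genes were higher and 17.1% lower. Bcl11b, the commitment factor of T cells, had 418 CPM (404 to 432) in DN2-3 and 132 CPM (121 to 143) in DN1, and 75 of 93 DN2-3 cells and 24 of 96 DN1 cells had 6 or more counts. Gata3 had 127 CPM in DN2-3 and 147 CPM in DN1, a log2 ratio of -0.20 (-0.38 to -0.01). Bcl11b and Gata3, which TCF1 is known to induce, were picked after their values were seen. Ets2, an ETS factor, had 65.5 CPM in DN2-3 and 0.962 CPM in DN1. Runx3, a Runt-domain factor, had 52.1 CPM in DN2-3 and 214 CPM in DN1.

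Of 11 measured Notch genes, 4 were higher and 2 lower, with a median of 0.72. Beside the counts of the short lists given here, 8.14% of all measured genes were higher and 17.1% lower. Counts near those shares are no finding about a list. The receptors Notch3 (57.7 CPM in DN2-3 and 5.29 CPM in DN1) and Notch1 (55.8 CPM in DN2-3 and 15.9 CPM in DN1) and the target Dtx1 (283 CPM in DN2-3 and 64 CPM in DN1) were among the higher. Hes1, the repressor that Notch induces, had 264 CPM in DN2-3 and 128 CPM in DN1, a log2 ratio of 0.99. Rbpj, the DNA-binding partner of cleaved Notch, was lower with 32.7 CPM in DN2-3 and 104 CPM in DN1. Of 6 measured E proteins and Id inhibitors, Tcf12 and Id3 were higher and Id2 lower: Tcf12 had 226 CPM in DN2-3 and 94.5 CPM in DN1, and Id3 266 CPM in DN2-3 and 50.2 CPM in DN1. Of 14 TCF/LEF factors and Wnt partners, Lef1 alone was higher and 4 were lower, Tle4, Bcl9l, Tcf7l2 and Axin1, with a median of -0.36. Bcl9l was at 0.15 against the DN1 cells without NK and ILC markers. Of 13 measured genes linked to T-cell leukaemia, 4 were higher and 5 lower, with a median of 0.30. The higher ones were Lef1, Bcl11b, Notch1 and Fbxw7, and the lower ones Hhex, Mef2c, Lyl1, Mycn and Lmo2, which the list of early progenitor genes also holds.

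Replication genes were higher in DN2-3 almost as a block. Of 24 measured S-phase genes, 22 were at least 2-fold higher and 0 lower, with a median of 1.67. Uhrf1, which maintains DNA methylation, had 231 CPM in DN2-3 and 24.8 CPM in DN1, Hells, a chromatin remodeller, 240.2 CPM in DN2-3 and 26.4 CPM in DN1, and Dut, the dUTPase, 994 CPM in DN2-3 and 152 CPM in DN1. Of 25 genes of G2 and M phase, 10 were higher and 0 lower, with a median of 0.85. Mki67 had 147 CPM in DN2-3 and 28.4 CPM in DN1, but few cells carried it: 18 of 93 DN2-3 cells and 3 of 96 DN1 cells had 6 or more counts, and a single DN1 cell held 61% of the DN1 counts. Without the highest cell of each gene in each library, the median of the G2 and M list was 2.02. Of 19 measured genes of ribosome biogenesis, 5 were higher and 0 lower, with a median of 0.75: Ncl, Nolc1, Dkc1, Pa2g4 and Fbl. The shares over all measured genes were 8.14% higher and 17.1% lower.

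The lower side of the step was led by genes of innate lymphocytes. Cxcr6, a chemokine receptor of ILC, NK and resident T cells (chr9:123806475-123811760, plus strand), had 1.31 CPM (0.656 to 2.35, 11 counts) in DN2-3 and 1239 CPM (1205 to 1273) in DN1, and a log2 ratio of -6.79. Its lowest, median and highest cells had 0, 0 and 108 CPM in DN2-3 against 0, 868 and 6400 CPM in DN1, and 0 of 93 DN2-3 cells against 56 of 96 DN1 cells had 6 or more counts. Ccl5, a chemokine of cytotoxic cells, had 1.55 CPM in DN2-3 and 1511 CPM in DN1, the lowest ratio of the named genes at -7.04 (-7.17 to -6.87). Cd7, an NK and T-cell surface protein, had 3.94 CPM in DN2-3 and 1483 CPM in DN1, with 6 or more counts in 1 of 93 DN2-3 cells and 71 of 96 DN1 cells.

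The adaptors Fcer1g and Tyrobp, which signal for activating NK and myeloid receptors, had 3.58 and 2.03 CPM in DN2-3 against 1242 and 677 CPM in DN1. Klrd1, the CD94 chain of NK receptors, had 1 count in DN2-3 (0.119 CPM, 0.00302 to 0.666) and 444 CPM in DN1. Klra5, a Ly49 receptor, had 0 counts in DN2-3 and 344 CPM in DN1, at least 959-fold lower against a floor of 3 counts in the DN2-3 library. Members of the Ly49 family resemble each other, so which of them the reads belong to is uncertain. Icos, a costimulatory receptor of ILC2 and T cells, had 7.53 CPM in DN2-3 and 600.1 CPM in DN1. Rgs1, S100a4, S100a6 and Cd52, genes of activated or resident lymphocytes, had log2 ratios of -5.60, -5.69, -5.40 and -5.81, and Cd52 was at 6 or more counts in 84 of 96 DN1 cells and in 12 of 93 DN2-3 cells.

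Of all measured genes 8.14% were higher and 17.1% lower, to be set beside each list count given here. The NK and cytotoxic list had 21 of its 23 measured genes lower in DN2-3 by 2-fold or more and 0 higher, with a median of -3.63. Among ILC genes 18 of 20 measured were lower and 0 higher, and their median was -3.21. With genes at 0 counts in DN2-3 set to their bound against the floor, the medians were -4.60 for the NK list, -3.64 for ILC, -3.72 for early progenitor, -4.52 for chemokine, -4.62 for myeloid, -2.70 for gamma-delta, -2.11 for dendritic, -1.90 for B-cell and -1.94 for immediate-early genes. Gzma, which encodes granzyme A, was the member with the highest ratio and stayed within 2-fold: it had 2633 CPM (2598 to 2668) in DN2-3 and 1545 CPM (1508 to 1584) in DN1, and a log2 ratio of 0.76, and was picked after its values were seen. Its counts reached 6 in 91 of 93 DN2-3 cells and 67 of 96 DN1 cells. Nkg7, a granule protein, had 198 CPM in DN2-3 and 1785 CPM in DN1, and Gzmb, granzyme B, 46.1 CPM in DN2-3 and 701 CPM in DN1. The 36 DN2-3 cells that count as NK-marked are largely cells with Gzma and Nkg7: Ncr1 and Eomes had 0 counts in DN2-3, and Klrb1c, Klrd1, Klrk1 and Klre1 had at most 0.597 CPM each. Of 14 chemokine and chemokine receptor genes, 13 were lower and 0 higher, with a median of -2.18. Ccl1 is among them through a single DN1 cell, which held 97.5% of its 1181 DN1 counts, and without the highest cell its log2 ratio was -0.76.

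Genes of early progenitors were close to absent from DN2-3. Of 17 measured, 15 were at least 2-fold lower in DN2-3 and 0 higher, with a median of -2.1, where 8.14% of all measured genes were higher and 17.1% lower. Cd34 had 0 counts in DN2-3 and 126 CPM in DN1, at least 352-fold lower against the floor. Mpo, myeloperoxidase, had 0.239 CPM in DN2-3 and 135 CPM in DN1, Hhex, a homeobox factor, 0.478 CPM in DN2-3 and 169 CPM in DN1, and Spi1, which encodes PU.1, 0.239 CPM in DN2-3 and 125 CPM in DN1. Kit, which DN2 cells are known to carry beside CD25, had 3 counts in DN2-3 (0.358 CPM) and 76.2 CPM in DN1, and Cd44 had 2.03 CPM in DN2-3 and 193 CPM in DN1. The DN1 gate was set on CD44, so the Cd44 step is partly fixed by the sort and is no finding. Of 93 DN2-3 cells, 0 had 6 or more Kit counts and 2 had 6 or more Cd44 counts. Of 7 measured progenitor and mast-cell-like genes, 5 were lower and 0 higher, with a median of -3.66: Fcer1g, Car2, Hbb-bt, Gzmb and Cpa3. Among these, Fcer1g and Gzmb are also given above with the genes of NK cells. The mast-cell genes Ms4a2, Hdc and Fcer1a had 0 counts in both libraries.

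Of 9 measured myeloid genes all 9 were lower, with a median of -4.45, led by Tyrobp, Fcer1g, Ly6c2 and Ctss, which NK cells also express. Beside the counts of this and the next lists, 8.14% of all measured genes were higher and 17.1% lower. Of 15 measured dendritic cell genes 11 were lower and Ly6d was higher, with a median of -1.94. Of 7 measured B-cell genes 7 were lower, with a median of -1.63, and of 13 measured gamma-delta T-cell genes 9 were lower and Id3 was higher, with a median of -1.94. The MHC class II and B-cell genes rested on very few DN1 cells. A single DN1 cell held 97.5% of the Cd79a counts and a single DN1 cell 89.1% of the Cd74 counts; without the highest cell of each gene, Cd79a and Ms4a1 no longer differed by 2-fold, at log2 ratios of -0.42 and -0.35. Of 3 measured thymic stroma genes, Epcam, an adhesion molecule that some thymocytes also carry, was higher (136 CPM in DN2-3 and 7.21 CPM in DN1), Pecam1 lower and Ccl25 within 2-fold, with a median of -0.15.

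Of 19 measured cytokine receptor and Jak-Stat genes, 10 were lower and Il2ra alone was higher, with a median of -1.05. Beside the counts of this and the next lists, 8.14% of all measured genes were higher and 17.1% lower. Il7r, the receptor chain that early thymocytes and ILC need to survive, had 155 CPM (146 to 163) in DN2-3 and 1059 CPM (1028 to 1091) in DN1, and Il2rb 1.31 CPM in DN2-3 and 294 CPM in DN1. Of 13 measured Bcl2 family genes, 5 were lower and 0 higher, with a median of -0.17: Bcl2, Bik and the near-identical Bcl2a1a, Bcl2a1b and Bcl2a1d, whose counts are uncertain. Bcl2 had 74.8 CPM in DN2-3 and 261 CPM in DN1. These directions depend on the DN1 cells used. The log2 ratio of Bcl2 was 0.41 against DN1 cells with progenitor markers and 1.52 against the 13 DN1 cells without NK and ILC markers. That of Il7r was -0.52 and 0.78 in the same order, and the cytokine list had a median of 0.91 against those 13 cells. A few deeper cells hold most of the counts of that set. Of 13 measured MHC class I presentation genes, 9 were lower and 0 higher, with a median of -1.20. H2-K1 had 596 CPM in DN2-3 and 3139 CPM in DN1, and H2-D1 505 CPM in DN2-3 and 2630 CPM in DN1, while the proteasome subunits Psmb8 and Psmb9 stayed within 2-fold. Of 16 measured immediate-early and stress genes, 11 were lower and 0 higher, with a median of -1.63. Fos had 14.6 CPM in DN2-3 and 452 CPM in DN1, of which a single DN1 cell held 42.2%. Of the 9 genes of the sort gates, Il2ra, Cd8a, Cd8b1 and Cd4 were higher and Cd44 and Kit lower, with a median of 0.97.

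What the DN1 gate held was measured with marker lists, counting a cell for a class when at least 2 of its markers reached 6 counts. DN3-stage markers were met in 89 of 93 DN2-3 cells (95.7%, Clopper-Pearson 89.4 to 98.8) and 29 of 96 DN1 cells (30.2%, 21.3 to 40.4). Of these, 84 DN2-3 cells but only 4 DN1 cells met 3 or more markers, and 25 DN1 cells met exactly 2. No DN1 cell reached 6 Rag1 counts, so the class does not make these DN1 cells DN3 cells. In WT DN1 3 of 86 cells met it and in Vav-cre DN1 2 of 58, and the part of carried-over counts in it was not tested. Early progenitor markers were met in 0 of 93 DN2-3 cells, with an upper limit of 3.89%, and 20 of 96 DN1 cells (20.8%, 13.2 to 30.3). NK markers were met in 36 of 93 DN2-3 cells and 70 of 96 DN1 cells, and ILC markers in 8 of 93 DN2-3 cells and 59 of 96 DN1 cells. In DN1 the NK and ILC classes overlapped, since 46 cells met both, 24 NK only and 13 ILC only. Thus 83 of 96 DN1 cells met at least 1 of them. The 13 DN1 cells that met neither class are those called without NK and ILC markers. They can still hold a marker of either class. Gamma-delta T markers were met in 14 DN2-3 and 24 DN1 cells, dendritic markers in 0 DN2-3 and 5 DN1 cells, B-cell markers in 0 DN2-3 and 3 DN1 cells, myeloid markers in 0 DN2-3 and 1 DN1 cell, and erythroid and mast markers in 0 cells of either gate.

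Summed over a class, NK markers had 2880 CPM in DN2-3, of which Gzma made 2633 CPM and Nkg7 198 CPM, and 5286 CPM in DN1, of which Gzma made 1545 CPM and Nkg7 1785 CPM. The remaining NK markers thus differed far more between the gates than the sum. Summed likewise, ILC markers 181 CPM in DN2-3 and 4799 CPM in DN1, and early progenitor markers 12.8 CPM in DN2-3 and 852 CPM in DN1. Cd34, Flt3, Lmo2 and Mef2c were at 0 counts in DN2-3. The classes depend on depth. Of the 23 DN1 cells with under 10000 counts, 2 met the DN3-stage class, 11 the NK class and 3 the ILC class, against 27, 59 and 56 of the 73 deeper ones. A smaller share of innate cells and less of their RNA per cell cannot be told apart in the summed values, and the part of the innate cells in the step was not tested.

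**Figure D3:**
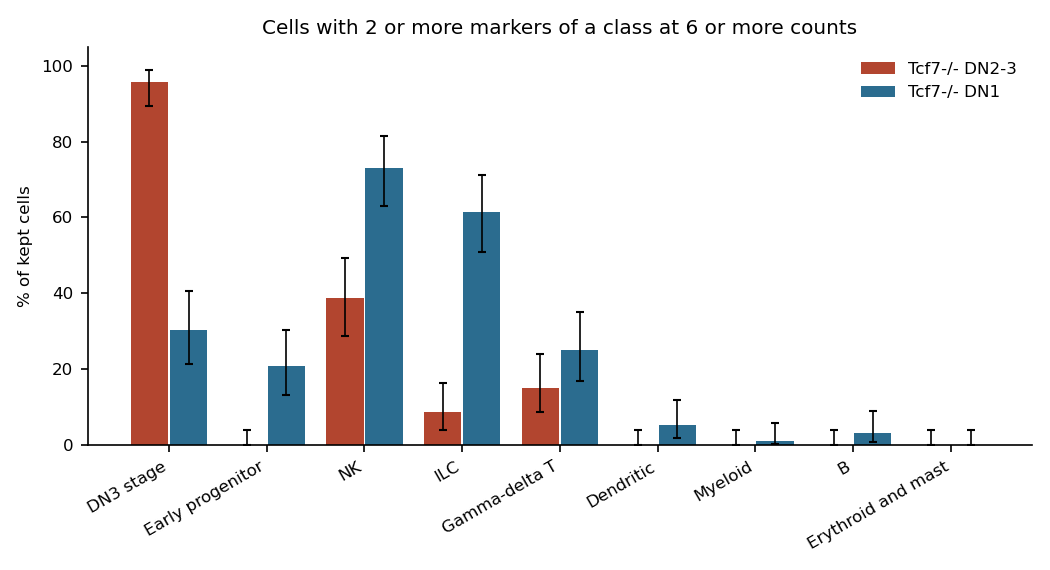
Percent of kept cells of Tcf7-/- DN2-3 (left bars, 93 cells) and Tcf7-/- DN1 (right bars, 96 cells) with at least 2 markers of a class at 6 or more counts, with 95% Clopper-Pearson intervals as whiskers. DN3-stage markers were met by 95.7% of DN2-3 and 30.2% of DN1 cells, early progenitor markers by 0% and 20.8%, NK markers by 38.7% and 72.9%, and ILC markers by 8.6% and 61.5%.

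The step was also read against the 20 progenitor-marked DN1 cells alone, and since these were picked by their RNA, their own marker genes are no finding. They held 41.6% of the DN1 counts, with a median of 60033 counts per cell against 24313.5 in the other 76 DN1 cells, and 18 of the 20 met 3 or more markers while 17 further DN1 cells met exactly 1. The class is not pure, since 18 of the 20 also met the NK or the ILC class, and the Cd79a counts lay mostly in it (309 CPM against 5.77 CPM in the other DN1 cells). Against these 20 cells, 12.2% of 8508 measured genes were at least 2-fold higher in DN2-3 and 18.8% at least 2-fold lower.

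Set against progenitor-marked DN1 cells, the T-cell receptor genes stood further apart. All 5 genes of the pre-TCR and CD3 complex were at least 2-fold higher, with a median of 3.13 in place of 1.10: Cd3g had 2059 CPM in DN2-3 and 226 CPM in these cells, and Cd3d 1723 CPM in DN2-3 and 178 CPM. Of 21 receptor signalling genes 12 were higher and 0 lower, with a median of 1.04, and Lef1 and Bcl11b had log2 ratios of 5.03 and 3.50. Dntt did not follow, with 256 CPM in the progenitor-marked cells and a log2 ratio of 2.03. The ILC list came closer to DN2-3: of 15 measured ILC genes 10 were lower, with a median of -1.81 in place of -3.21, and Id2 had 350 CPM in these cells and a log2 ratio of -1.12. Il7r, at 226 CPM, and Gzmb, at 98.1 CPM, lay within 2-fold with log2 ratios of -0.52 and -0.95, and Bcl2 was at 0.41. S-phase genes had 19 of 24 higher and a median of 1.53, whereas of 25 G2 and M genes 4 were higher and 7 lower, with a median of -0.11. Against all DN1 cells the G2 and M median depended on few cells, as given above. No value without the highest cell of each gene is given here for the 20 progenitor-marked cells.

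Side by side with the same step in the other genotypes, with 1 library a gate and no test of a difference, some lists had like medians and others did not. In Vav-cre, 15.9% of 9059 measured genes were at least 2-fold higher in DN2-3 and 24.7% lower, and in WT 16.3% of 8702 were higher and 11.7% lower. Lower genes thus outnumbered higher ones in Tcf7-/- and Vav-cre, and higher ones lower ones in WT. The TCF/LEF and Wnt list had medians of -0.36 in Tcf7-/-, -0.34 in Vav-cre and 0.62 in WT, and receptor signalling genes were 6 higher and 1 lower in Tcf7-/-, 7 higher and 2 lower in Vav-cre, and 4 higher and 9 lower in WT. NK and cytotoxic genes had medians of -3.63 in Tcf7-/-, -3.05 in Vav-cre and -4.54 in WT, and S-phase genes 1.67 in Tcf7-/-, 0.90 in Vav-cre and 1.05 in WT. The early progenitor list had medians of -2.1 in Tcf7-/- (17 genes measured), -2.29 in Vav-cre (19 measured) and -0.31 in WT (8 measured). Each list median is over the genes measured in that genotype, so the medians of a list can cover different genes. WT DN1 had 3 progenitor-marked cells of 86. Rag1 had log2 ratios of 3.72 in Tcf7-/-, 4.48 in Vav-cre and 3.86 in WT. Dntt had 2.26 in Tcf7-/-, 5.08 in Vav-cre and 7.02 in WT, with 217 CPM in Tcf7-/- DN1 against 13.5 CPM in WT DN1. Less the estimated carry-over, which was computed for Tcf7-/- DN1 alone, that level was 129 CPM. Tcf7 had 0.29 in Tcf7-/-, 1.36 in Vav-cre and 2.60 in WT.

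Some of the genes with the highest ratios in Tcf7-/- were high in the DN2-3 gate of only part of the genotypes. Pdlim4 had 226 CPM in Tcf7-/- DN2-3, 333 CPM in Vav-cre DN2-3 and 0 counts in WT DN2-3. H2-Q2 had 123 CPM in Tcf7-/- DN2-3, 2.28 CPM in Vav-cre DN2-3 and 2.21 CPM in WT DN2-3, and Slc5a9 283 CPM in Tcf7-/- DN2-3, 13 CPM in Vav-cre DN2-3 and 113 CPM in WT DN2-3. Between the Lck-cre plates Slc5a9 differed by -1.18, plate 2 over plate 1, while Pdlim4 differed by 0.05. G2 and M genes had medians of 0.85 in Tcf7-/-, 2.1 in Vav-cre and 1.98 in WT. The Tcf7-/- median of this list rose past 2-fold without the highest cell of each gene, as given above, so its lower value depends on few cells. No such value is given here for Vav-cre and WT.

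**Figure D4:**
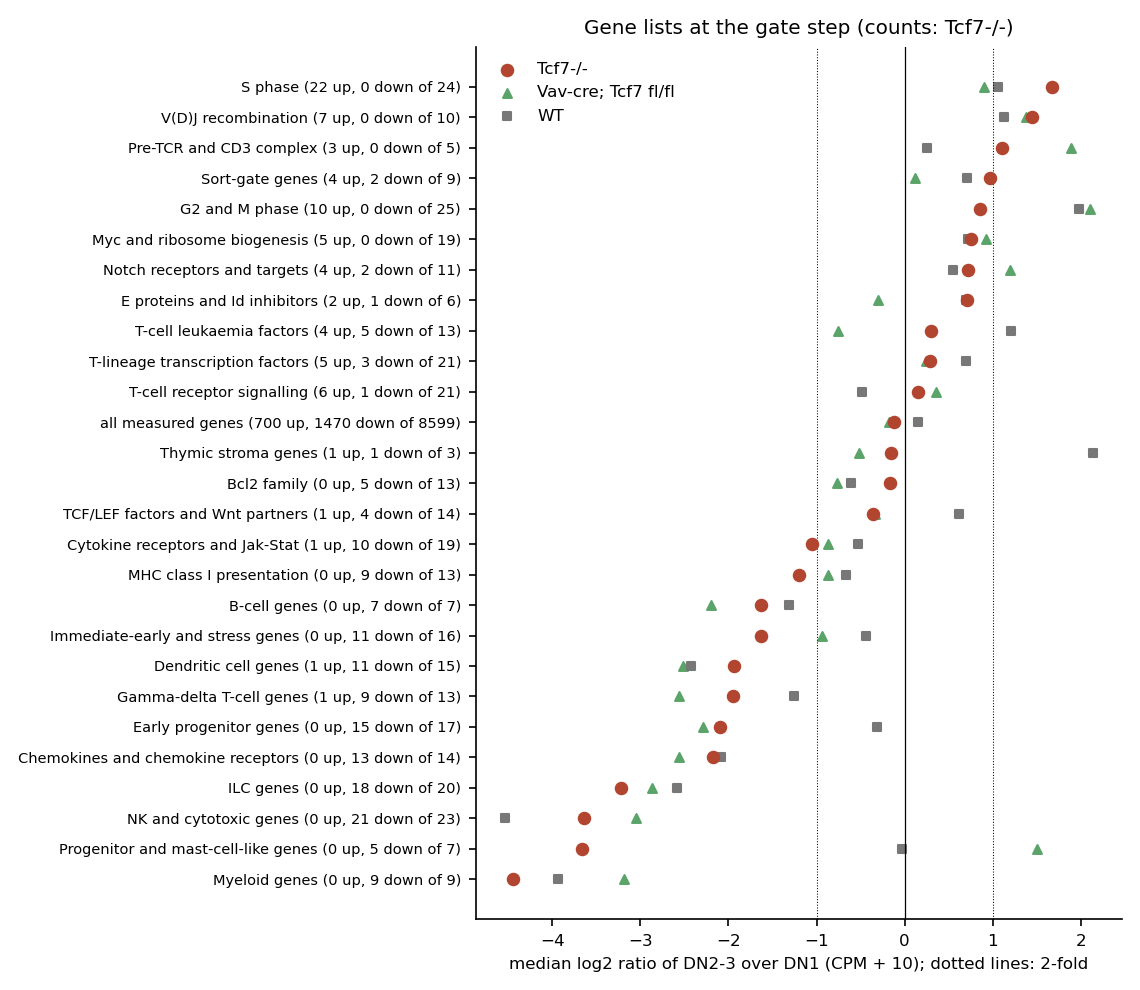
Median log2 ratio of DN2-3 over DN1 for 26 gene lists and for all measured genes in Tcf7-/- (circles), Vav-cre; Tcf7 fl/fl (triangles) and WT (squares), with the counts of Tcf7-/- members at least 2-fold up or down beside each name and dotted lines at 2-fold. S phase, V(D)J recombination and the pre-TCR and CD3 complex lie above 2-fold in Tcf7-/-, the NK, ILC and myeloid lists lie far below in every genotype, and the progenitor and mast-cell-like list lies at -3.66 in Tcf7-/-, 1.51 in Vav-cre and -0.03 in WT. Each median is over the members measured in that genotype, for the last list 7, 9 and 7 in the same order.

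Low counts of DN2-3 genes were present throughout the DN1 library. Of the widely expressed genes, 87 were at least 4-fold higher in DN2-3. Their DN1 level was 10.8% of the DN2-3 level at the median, from 1.17% to 22.9%, against 6.21% in Vav-cre (85 of them measured there) and 12.3% in WT (80). The choice by Tcf7-/- ratios caps the Tcf7-/- percentages and not the others, which reach 210% in WT (Agfg1) and 190% in Vav-cre (Hells). The medians of the genotypes are therefore not comparable. The 87 genes took a median of 2.23% of a cell's counts in DN2-3 and 0.275% in DN1. Every DN1 cell had at least 29 counts of them, and in DN1 cells with under 10000 counts the share was 1.09% at the median with 53 counts a cell, against 0.221% and 104 counts in deeper DN1 cells. The DN1 cells that come nearest to DN2-3 by share are therefore the shallow ones, in which few counts are read; WT DN1 cells under 10000 counts had a median of 7 such counts (5 cells).

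**Figure D5:**
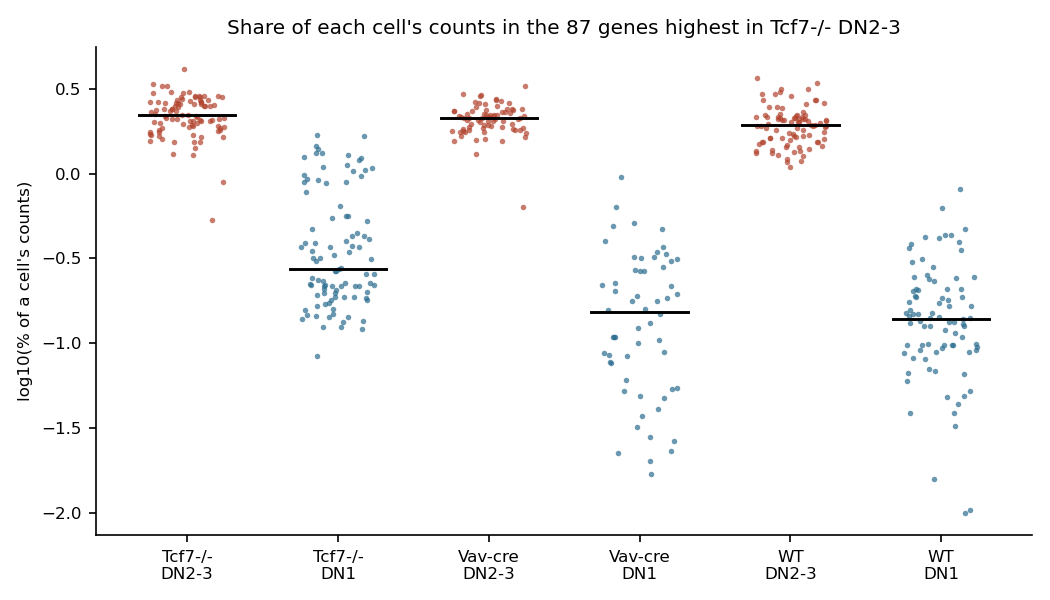
Percent of each kept cell's counts that fall in the 87 genes at least 4-fold higher in Tcf7-/- DN2-3, as log10, in 6 libraries with a black line at the median over cells. The genes were chosen on the 2 leftmost libraries, where the medians are 2.23% in DN2-3 and 0.275% in DN1, and 15 Tcf7-/- DN1 cells are at 1% or more, against 0 cells of Vav-cre DN1 and 0 of WT DN1.

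Cells that share a barcode number in different libraries were then compared, by a rule chosen after seeing the data. For each gene with at least 100 counts in a single cell that held at least 50% of the gene's counts in its library, the cell with the same number in another library was read. The Tcf7-/- DN1 cell of the same number had a count in 185 of 298 cases (62.1%), against 23.7% in the other DN1 cells. In Tcf7-/- DN2-3 the figures were 27.4% at the same number and 25% at other numbers over 332 cases, and the other 6 libraries ran from 12.9% to 21% at the same number and from 14.6% to 19.5% at other numbers. A stricter rule was also tried and, with 300 counts and 80% in a single cell, it gave 11 of 12 cases (91.7%) against 19.8% in Tcf7-/- DN1, and 8 of 20 (40%) against 21% in Tcf7-/- DN2-3. It also gave 5 of 20 (25%) against 12% in WT DN2-3 and 5 of 14 (35.7%) against 20.3% in WT DN1, and in the remaining libraries with such genes from 5.88% to 21.4% against 9.96% to 15.9%. By source under the first rule, Tcf7-/- DN2-3 had 44.4% at the same number against 27.8% for genes of Tcf7-/- DN1, and 44.4% against 23.2% for genes of Lck-cre plate 1. Of the 185 counts, 148 were between 1 and 5, and the median over all 298 was 0.617% of the count in the other library's cell.

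When that percentage of every same-numbered cell in the other 7 libraries was taken off, it removed 5.73% of all DN1 counts and 32.4% of the DN1 counts of the 87 genes. Ptcra then had 37.2 CPM in DN1, Dntt 129 CPM, Rag1 1.83 CPM and Lef1 32.2 CPM, with 782 genes at least 2-fold higher and 1532 genes at least 2-fold lower in DN2-3. Across cells, the summed counts of the 87 genes in a DN1 cell had a Spearman correlation of 0.30 with the DN2-3 cell of the same number (93 cells), 0.41 with the same-numbered cell of WT DN2-3 (88 cells) and 0.74 with the DN1 cell's own total (96 cells), which is a description with no test. With counts of 1 to 5 set to 0 in both libraries, 979 genes were higher and 1395 lower, and Ptcra, Dntt, Rag1, Lef1, Id2 and Cpa3 kept their direction.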

How the data were processed

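Single cells sorted into 96-well plates were sequenced with a modified STRT protocol, as paired-end reads of 150 bases on an Illumina HiSeq instrument, per the labels' protocols. The submitters' processing notes name TopHat2 2.1.1, HTSeq and mm10; whether strand or molecular identifiers were used is not given in the sources used here. The deposited count table holds whole-number counts per gene and cell as the authors made them, and the deposited log2 table holds the authors' log2 of scaled TPM with 1 added per cell, used as an alternative only; how TPM was computed is not given in the sources used here. From the counts, 27 date-named entries (0.141% of counts) were dropped, leaving 23127 genes. No caller of doublets was run, and T-cell receptor constant genes were not analysed here, and some genes are not reported here.

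Counts were summed per library over cells in which 1000 or more genes were detected, 1 library per gate, over 8371808 counts in Tcf7-/- DN2-3 and 4159404 in Tcf7-/- DN1. Genes with 10 CPM in either library were measured, and a 2-fold difference of (CPM + 10) was called; with 1 library a group and no animals named there is no test and no p-value. Poisson, conditional binomial and Clopper-Pearson intervals (95%) cover counting error only. Genes at 0 were given bounds against 3 counts per library. Named genes had 50 CPM or more in a library, counts in at least 20% of the cells of the higher library and no cell with over 25% of the counts there: the 12 highest and 12 lowest log2 ratios, without unnamed gene models, Xist and Y-linked genes, then the markers, Tcf7 and the 4 largest changes of each list, 107 in all. Other genes in the text were picked after their values were seen. Members and lists were chosen with earlier results of these data known. Alternatives covered the pseudocount, scaling, cell weights, depth, cell and gene filters, low counts, the highest cell and the DN1 cells used. The summing and fold code was tested on simulated data. Software was Python 3.11.15, numpy 2.4.6, pandas 2.3.3, scipy 1.17.1, matplotlib 3.10.9, R 4.3.3 and edgeR 4.0.16, the last for TMM factors only.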

Additional observations from a re-analysis of the deposited data

Results flagged for a closer look

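Of the 107 named genes, 3 stood at least 2-fold apart in opposite directions in Tcf7-/- and WT, each from 1 library a gate, and the difference between the genotypes was not tested. Cpa3 had a log2 ratio of DN2-3 over DN1 of -3.63 in Tcf7-/- and 5.43 in WT, with 24.2 CPM in Tcf7-/- DN2-3 and 415 CPM in Tcf7-/- DN1 against 482 CPM in WT DN2-3 and 1.41 CPM in WT DN1. Pecam1, an adhesion molecule of endothelium and of some blood progenitors, had -1.24 in Tcf7-/- and 2.13 in WT. Tcf7l2, a relative of TCF1, had -1.25 in Tcf7-/- and 1.80 in WT, from 33 counts in Tcf7-/- DN2-3 and 96 counts in Tcf7-/- DN1. Genotype and a possible batch cannot be told apart in these pairs.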

How the results depend on the processing

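The number of genes at least 2-fold higher was 700 and became 1122 with a pseudocount of 1 CPM and 429 among genes at 50 CPM or more. It was 2805 against the 13 DN1 cells without NK and ILC markers. That set holds 256526 counts in all with a median of 4899 a cell, so a few deeper cells hold most of them. Of the 13 cells, 2 are also progenitor-marked. The number of lower genes was 1470 and became 734 among genes at 50 CPM or more. The cause was not tested, beyond the smaller set of genes that the 50 CPM filter leaves. Against DN1 cells with progenitor markers Bcl2 turned to 0.41. Against DN1 cells without NK and ILC markers the cytokine receptor list turned to 0.91, Bcl2 to 1.52, Bcl9l to 0.15 and Il7r to 0.78. Maf turned to 0.90, Ms4a1 to 0.084 and Id2 to 0.11 there, and Id2 is among the ILC markers that picked those cells. Of 107 named genes 103 differed by 2-fold or more; all 103 kept their direction under the other settings that recompute single genes, and between 99 and 103 stayed past 2-fold. The pre-TCR and CD3 list had a median of 0.93 with cells weighted equally and 0.96 on the authors' log2 values. Of the 15 called lists, 13 stayed past 2-fold under each of these settings and also without the filter on low genes. With cells thinned, without the highest cells, and against progenitor-marked DN1 cells, 14 did each time. Against DN1 cells without NK and ILC markers 11 did. All 15 stayed past it under the other settings. No paired analysis was possible because each gate is 1 library and no test was made; barcode numbers name wells, not replicates. The DN1 library's 4159404 counts limit low genes: 0 counts allow up to 0.887 CPM in DN1 and 0.441 CPM in DN2-3.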
